A study of Drosophila melanogaster with 8 samples.

Results

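The UDP-glycosyltransferase genes of Drosophila were taken as all genes of the deposited table whose symbol begins with Ugt followed by a number, which gave 32 of 13982 listed genes, all protein-coding. RNA was measured in heads of 2 day old flies, with 20 heads (10 male and 10 female) in a library and 4 libraries from each genotype. ND-75KD flies (nSybGal4/ND-75 RNAi) expressed a short hairpin against ND-75, a complex I subunit, from the neuronal nSyb driver, and the paper's legends for head tissue add Tub-Gal80ts, which the sample labels do not name. Control flies (nSybGal4/w[1118]) carried the same driver over w[1118]. By these labels control flies lack the RNAi line, which the study describes as leaky, so effects of the stock and of the hairpin cannot be told apart. No source says that the pools came from different crosses, and the p values below rest on how far pools of heads differ, which may be technical.

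UDP-glycosyltransferases are enzymes of the endoplasmic reticulum membrane that join a sugar from a UDP-sugar donor to small lipophilic molecules, which makes these more soluble and easier to excrete. Insect members use mainly UDP-glucose as the donor. Substrates in insects include plant toxins, insecticides, hormones, pigments, cuticle precursors and odorants, and the genes are known from fat body, gut, Malpighian tubules and the support cells of sensory organs. Members are numbered by sequence family, so that Ugt35C1 and Ugt35B1 belong to family 35. The members analysed fall into 13 such families.

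Library totals lay between 17448199 and 24071517 counts in ND-75KD libraries and between 21758154 and 24680283 counts in control libraries. ND-75 itself was at 306 ± 15.99 CPM in ND-75KD heads and 626 ± 64.9 CPM in control heads (CPM, counts scaled to library size with TMM factors, SD, n = 4 each). Of 9986 genes with enough reads for edgeR's quasi-likelihood test, 33.2% passed at an adjusted p (Benjamini-Hochberg) below 0.05, with 14.3% higher and 18.9% lower in ND-75KD heads. The mitochondrial large ribosomal RNA took 4.58% to 7.404% of counts in ND-75KD libraries, 23.9% in control replicate 2 and 5.36% to 9.001% in the other control libraries. Markers of other cells moved with the genotype. Of the markers with enough reads, 5 of 8 for neurons were higher, 4 of 9 for glia were lower and 1 (Mdr65) higher, 4 of 8 for photoreceptors were lower, 4 of 8 for fat body were lower and 2 higher, and 4 of 5 for hemocytes were lower. The remaining marker lists each had 1 gene called lower, of 5 tested for muscle, 4 for olfactory support cells, 3 for oenocytes and 2 for midgut and Malpighian tubule. Summed over each list, ND-75KD libraries lay at 3105 to 3342 CPM for neurons, against 2154 to 3048 CPM in control libraries. The sums were 2732 to 3100 CPM in ND-75KD libraries against 3275 to 4101 CPM in control libraries for glia, and 2308 to 3339 CPM in ND-75KD libraries against 5079 to 7993 CPM in control libraries for fat body. For photoreceptors they were 19692 to 23396 CPM in ND-75KD libraries against 26012 to 39030 CPM in control libraries, and for hemocytes 219 to 242 CPM in ND-75KD libraries against 353 to 492 CPM in control libraries. Hence, as sums on this scale, neuronal markers were higher in ND-75KD heads, and glial, photoreceptor, fat body and hemocyte markers were lower. The TMM factors were 1.12 to 1.15 in ND-75KD libraries and 0.65 to 1.02 in control libraries. Sums in CPM depend on these factors and are not shares of the counts. Abundant genes weigh most in these sums. On average ninaE was at 11458 CPM in ND-75KD heads and 19752 CPM in control heads. The photoreceptor markers Rh3, Rh5, ninaC and norpA were not called, nor were the glial markers repo, Gs2, nrv2 and moody. In fat body the most abundant were apolpp (1365 CPM in ND-75KD heads, 3405 CPM in control heads) and FASN1 (822 and 2241 CPM). The 2 higher fat body markers were Fbp1 and Fbp2. Fewer cells of a type and less RNA per cell cannot be told apart in whole heads.

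In the heads, 18 of the 32 Ugt genes had enough reads to be tested, and these held 99.6% of the Ugt reads in ND-75KD libraries and 99.7% in control libraries. Of the 18, 5 were lower in ND-75KD heads, 1 was higher and 12 were not called. The lower ones were Ugt35C1, Ugt36E1, Ugt36F1, Ugt302C1 and Ugt49C1, with falls between 1.48-fold and 2.60-fold, and the higher one was Ugt301D1. This is 27.8% lower and 5.56% higher, beside 18.9% and 14.3% over all tested genes, and with 18 genes these shares do not set the family apart. The median log2 fold change, ND-75KD over control, was −0.17 over the tested Ugt genes and −0.01 over all tested genes, and 12 of the 18 were negative. Libraries of both genotypes were fully separated for 9 of the 18, with ND-75KD below in 7 and above in 2, beside 36.2% of all tested genes (19% below and 17.2% above). The tested Ugt genes were 1667 to 3316 bases long, and all tested genes within that range had a median of −0.01. Medians of all tested genes rose with length, from −0.15 at 1423 to 1730 bases to 0.09 at 3165 to 4117 bases. Once the trend of counts with gene length was removed, the median was −0.12 over the tested Ugt genes and 0.006 over all tested genes.

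**Figure D1:**
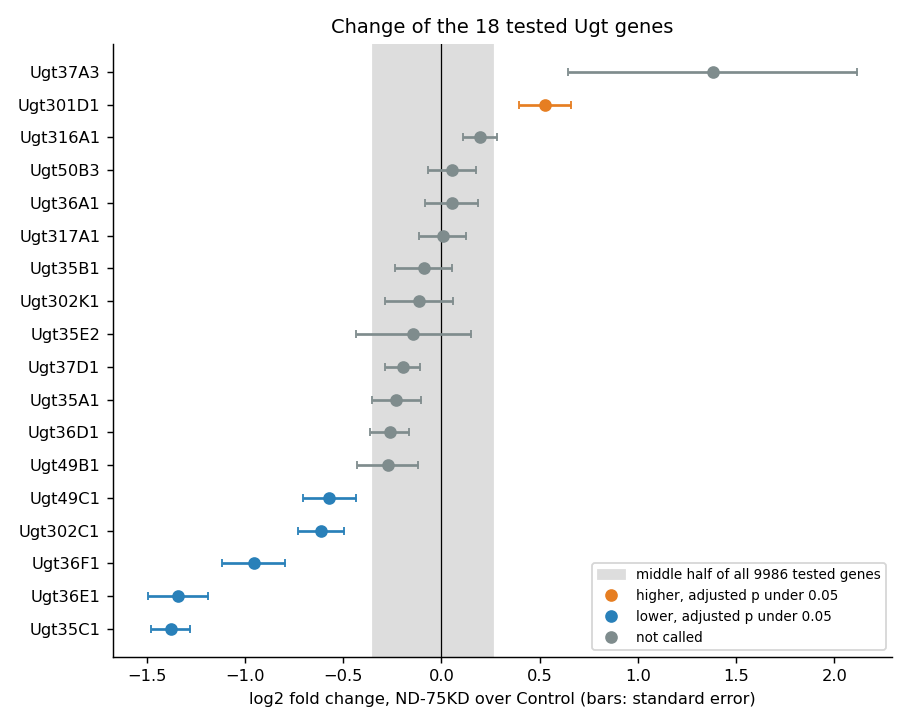
Log2 fold change of the 18 tested Ugt genes, ND-75KD over control, with bars for the standard error, from edgeR's quasi-likelihood test on 4 libraries in each genotype. The shaded band runs from −0.35 to 0.26, the quartiles of all 9986 tested genes. The 5 genes in blue and the gene in orange passed the test, and Ugt37A3, in grey at the top, has by far the widest bar.

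Ugt35C1, formerly Ugt86Dd and known for its part in resistance of flies to nicotine, had the largest fall of the family. It lies on the minus strand of chromosome arm 3R, from 11126597 to 11128328, with 2 exons (FBgn0040256). Its level was 17.9, 21.0, 19.7 and 18.4 CPM in ND-75KD replicates 1 to 4, against 51.3, 51.6, 53.1 and 44.2 CPM in control replicates 1 to 4. The highest ND-75KD library was thus below the lowest control library by more than the whole range within either genotype. On the log2 scale the fold change was −1.38 ± 0.10 (SE, adjusted p = 1.31e-05), and by p value the gene ranked 28 of the 9986 tested. It held 3.44% of the family's reads in ND-75KD heads and 7.92% in control heads.

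Ugt36E1 and Ugt36F1, which lie at the ends of a group of 3 family 36 genes, also fell. Ugt36E1 has been linked to odour discrimination in flies and lies on the plus strand of 2L, from 18826770 to 18829059 (FBgn0027070, 4 exons). It was at 14.2, 14.4, 10.1 and 9.19 CPM in ND-75KD replicates 1 to 4, against 30.4, 29.3, 32.05 and 29.04 CPM in control replicates 1 to 4. The control libraries were close together, whereas ND-75KD replicates 1 and 2 were above 3 and 4. Its log2 fold change was −1.34 ± 0.15 (SE, adjusted p = 1.98e-04). In the annotation 48 of its 1903 exon bases are shared with CG17597, a gene of the other strand that also fell (log2 fold change −0.70, adjusted p = 0.0267), and without a stated strand setting reads there cannot be assigned.

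Ugt36F1 (2L, plus strand, 18819344 to 18822573, FBgn0027074, 6 exons) is expressed at a lower level. It was at 5.11, 5.65, 6.34 and 5.69 CPM in ND-75KD replicates 1 to 4, against 14.3, 11.2, 9.54 and 9.22 CPM in control replicates 1 to 4. Control replicate 1 was the highest, and no ND-75KD library reached the lowest control. Its log2 fold change was −0.96 ± 0.16 (SE, adjusted p = 0.00167), and −0.76 without control replicate 1. Between them lies Ugt36D1, at 35.0 ± 3.86 CPM in ND-75KD heads and 42.0 ± 1.13 CPM in control heads (SD, n = 4 each). Its groups did not overlap either, with 30.9 to 40.1 CPM in ND-75KD libraries against 40.4 to 43.0 CPM in control libraries. In edgeR the log2 fold change of −0.26 ± 0.10 (SE, adjusted p = 0.0600) did not pass the test, although it did without ND-75KD replicate 3 (−0.34, adjusted p = 0.0376). The remaining family 36 gene, Ugt36A1, also named Dorothy and used as a marker of larval pericardial cells, was at 8.42 ± 0.83 CPM in ND-75KD heads and 8.09 ± 1.04 CPM in control heads (SD, n = 4 each). It is the tested member with the most exon sequence shared with a gene of the other strand, 400 of 2303 bases with CG15418, against 90 of 1754 bases of Ugt49B1 with CG44245.

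Ugt302C1, formerly Ugt86Da, lies on the plus strand of 3R from 11157098 to 11159744 (FBgn0040259, 3 exons). It was at 41.8, 39.5, 34.0 and 37.8 CPM in ND-75KD replicates 1 to 4, against 67.4, 48.8, 55.5 and 62.2 CPM in control replicates 1 to 4. All ND-75KD libraries were below all control libraries, the nearest control being replicate 2. The log2 fold change was −0.61 ± 0.12 (SE, adjusted p = 0.00325). Ugt49C1 lies on the minus strand of 2R from 21215435 to 21217779 (FBgn0034605, 6 exons). It was at 52.1, 38.0, 33.7 and 34.9 CPM in ND-75KD replicates 1 to 4, against 55.9, 57.6, 59.6 and 62.3 CPM in control replicates 1 to 4. ND-75KD replicate 1 came near the controls and the other 3 stayed well below. The log2 fold change was −0.57 ± 0.14 (SE, adjusted p = 0.00979), and −0.73 without ND-75KD replicate 1.

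**Figure D2:**
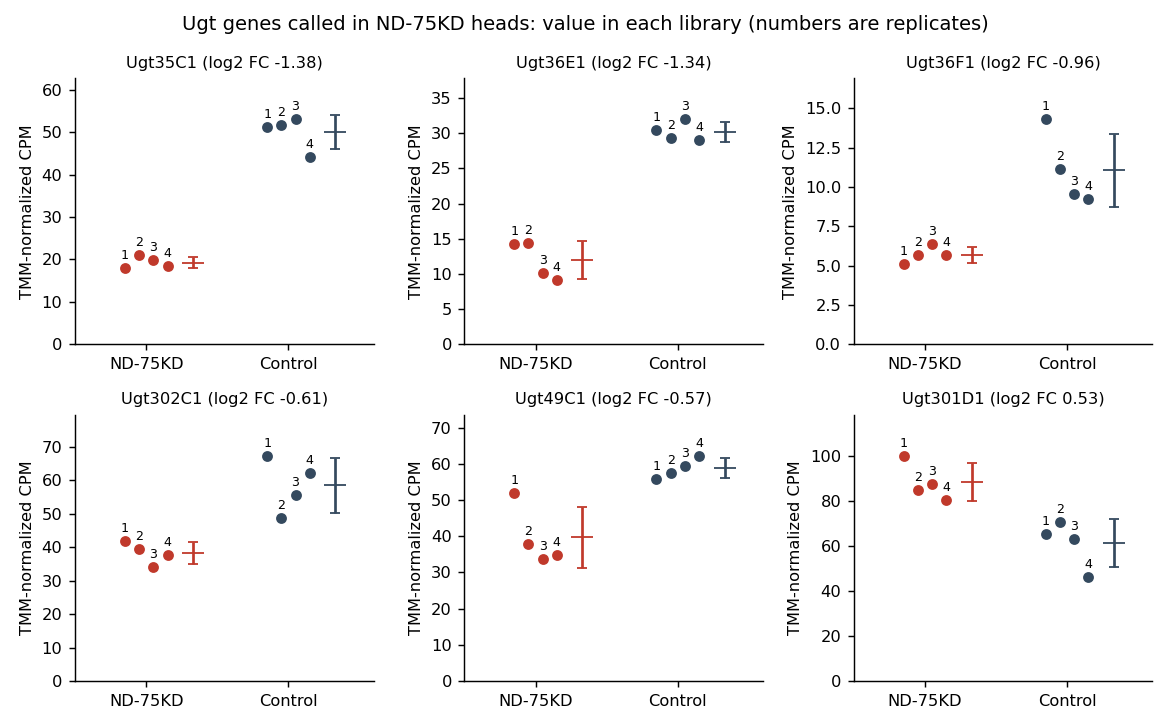
TMM-normalized CPM of the 6 Ugt genes that passed the test, 1 panel a gene, with a numbered point for each replicate and the mean and SD of 4 libraries beside them (ND-75KD red, control dark blue). In every panel the ND-75KD points and the control points do not overlap, and Ugt301D1 is the panel in which ND-75KD is higher.

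Ugt301D1 was the member that rose. It lies on the plus strand of 2L from 18509560 to 18513512 (FBgn0032684, 4 exons). Its level was 100.2, 84.9, 87.6 and 80.6 CPM in ND-75KD replicates 1 to 4, against 65.4, 70.6, 62.9 and 46.3 CPM in control replicates 1 to 4. Control replicate 4 was lower than the other controls, and the groups did not overlap. The log2 fold change was 0.53 ± 0.13 (SE, adjusted p = 0.0126). Against a fold of 1.2 it did not pass (edgeR's glmTreat, adjusted p = 0.0586). Both listed genes next to it were also higher in ND-75KD heads, kon, a transmembrane proteoglycan gene, at 41.1 CPM against 18.04 CPM in control heads and CG10211 at 58.8 CPM against 41.5 CPM in control heads. Over all Ugt genes and clusters, 5 of 34 such neighbours were higher, 4 were lower, 20 were not called and 5 had too few reads. Over all tested genes 14.3% were higher and 18.9% lower, so these counts do not set the neighbours apart.

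Levels within the family were compared per kilobase of gene model. The order was led by Ugt35B1, formerly Ugt35b and known from fly antennae, with 62.7 CPM per kilobase in ND-75KD heads and 66.8 CPM per kilobase in control heads. Its values were 132.5, 100.9, 102.2 and 83.8 CPM in ND-75KD replicates 1 to 4, against 99.4, 134.3, 106.6 and 106.6 CPM in control replicates 1 to 4. ND-75KD replicate 1 and control replicate 2 were the highest, ND-75KD replicate 4 was the lowest, and the groups overlapped (log2 fold change −0.09 ± 0.15 SE, adjusted p = 0.656). Of 8 markers of olfactory organ support cells, 5 were under 0.5 CPM in both genotypes. Among these, the antennal odorant-binding protein gene Obp83a was at 0.38 CPM in ND-75KD heads and 0.46 CPM in control heads, and Obp83b was at 0.21 CPM in ND-75KD heads and 0.34 CPM in control heads. The other 3 were above 0.5 CPM in both genotypes. lush was at 8.14 CPM in ND-75KD heads and 5.05 CPM in control heads, Obp28a at 7.66 CPM in ND-75KD heads and 16.4 CPM in control heads, and Obp56d at 391.7 CPM in ND-75KD heads and 560.0 CPM in control heads. Obp28a was the 1 called lower.

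In ND-75KD heads Ugt301D1 came next, at 44.5 ± 4.23 CPM per kilobase, against 30.8 ± 5.29 CPM per kilobase in control heads (SD, n = 4 each). It ranked 2 in ND-75KD heads and 4 in control heads. Ugt49B1 ranked 3 in ND-75KD heads, with 28.7 ± 5.61 CPM per kilobase, and 2 in control heads, with 34.8 ± 5.63 (SD, n = 4 each). Its libraries were at 63.9, 51.4, 43.9 and 42.4 CPM in ND-75KD replicates 1 to 4, against 54.2, 73.0, 65.1 and 51.7 CPM in control replicates 1 to 4, with a log2 fold change of −0.27 ± 0.15 (SE, adjusted p = 0.192). It is the neighbour of Ugt49C1, which fell to 20.9 ± 4.47 CPM per kilobase in ND-75KD heads, against 31.0 ± 1.45 in control heads (SD, n = 4 each). In control heads the 5 genes from Ugt49B1 to Ugt302C1 lay between 29.3 and 34.8 CPM per kilobase, with SDs of 1.45 to 5.63, so their order there is not separated from the spread. In ND-75KD heads the same 5 genes ran from 11.5 CPM per kilobase for Ugt35C1 to 44.5 CPM per kilobase for Ugt301D1. Ugt35C1 had rank 10 in ND-75KD heads and rank 5 in control heads, and Ugt36E1 had rank 12 in ND-75KD heads and rank 9 in control heads. The 6 genes with the highest control levels held 60.9% of the family's reads in ND-75KD heads and 63.6% in control heads.

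**Figure D3:**
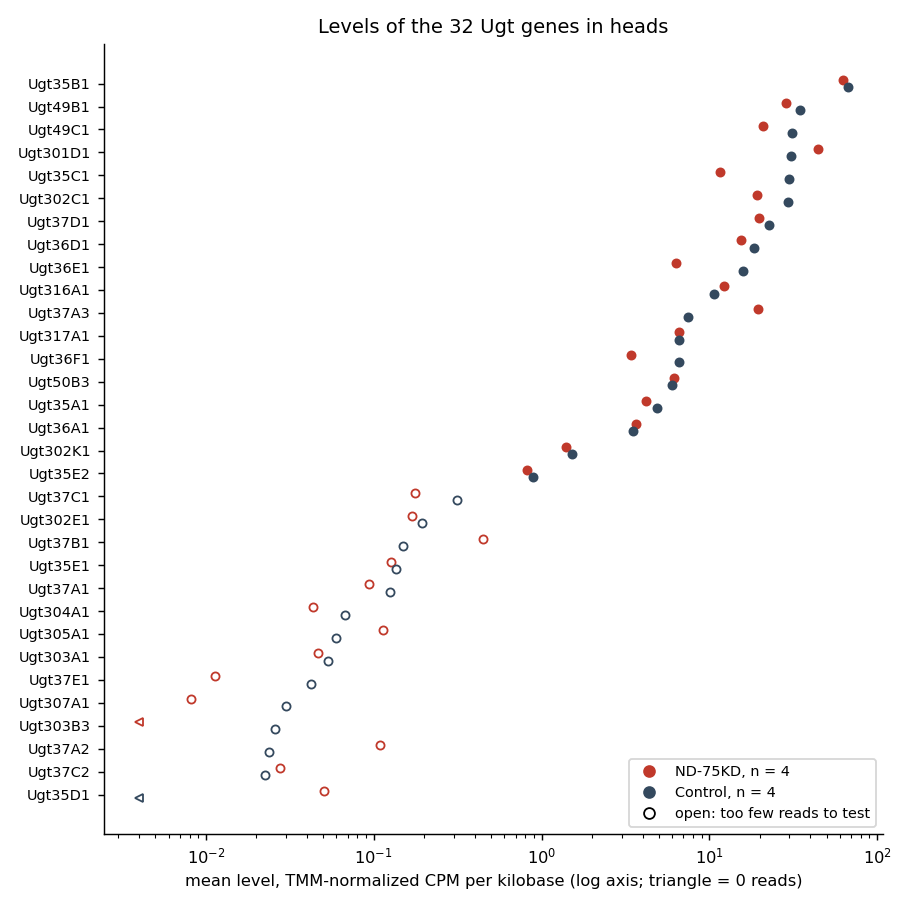
Mean level of all 32 Ugt genes in ND-75KD heads (red) and control heads (dark blue), in TMM-normalized CPM per kilobase on a log axis, in the order of the control level. Filled points are the 18 tested genes, from 0.82 to 62.7 in ND-75KD heads and from 0.90 to 66.8 in control heads, open points had too few reads to test, and triangles are means of 0 reads.

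Ugt37A3 was unlike the rest in its spread. It lies on the minus strand of 3R from 12741958 to 12743680 (FBgn0038083, 2 exons). Its level was 90.1, 10.3, 26.5 and 3.80 CPM in ND-75KD replicates 1 to 4, against 17.9, 11.1, 10.8 and 10.2 CPM in control replicates 1 to 4. ND-75KD replicates 1 and 3 were above every control library and ND-75KD replicate 4 was below every control library, a 23.7-fold range within the genotype. The coefficient of variation (SD over mean) was 121% in ND-75KD heads and 29.04% in control heads. Among the 6829 genes at 10 CPM or more on average in ND-75KD heads, Ugt37A3 had rank 2 by this coefficient, and their median was 6.48%. The log2 fold change of 1.38 ± 0.74 (SE, adjusted p = 0.170) was not called. It was 0.11 without ND-75KD replicate 1, and without ND-75KD replicate 4 it was 1.76 and passed the test (adjusted p = 0.0492), so single libraries decide it. The adjacent Ugt37A2, on the plus strand, had 10, 0, 5 and 1 reads in ND-75KD replicates 1 to 4, against 2, 0, 0 and 2 reads in control replicates 1 to 4. The same ND-75KD libraries, 1 and 3, were the highest for both genes, at read numbers of Ugt37A2 that are too low to compare. The other 17 tested Ugt genes had coefficients from 2.30% to 43.7% in ND-75KD heads, and all 18 had coefficients from 2.70% to 29.04% in control heads.

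Summed over the 32 genes, the family was at 682, 532, 533 and 489 CPM in ND-75KD replicates 1 to 4, against 636, 656.5, 634 and 599 CPM in control replicates 1 to 4. On this scale ND-75KD replicate 1 was above every control library and the other 3 were below all of them. These sums depend on the TMM factors given above and were not recomputed with another scaling. Without Ugt37A3 the sums were 592, 522, 507 and 486 CPM in ND-75KD replicates 1 to 4, against 617.8, 645, 623 and 589 CPM in control replicates 1 to 4. ND-75KD replicate 1 then lay just above the lowest control library. This replicate was the highest of its genotype for 8 of the 18 tested genes and the lowest for 6.

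**Figure D4:**
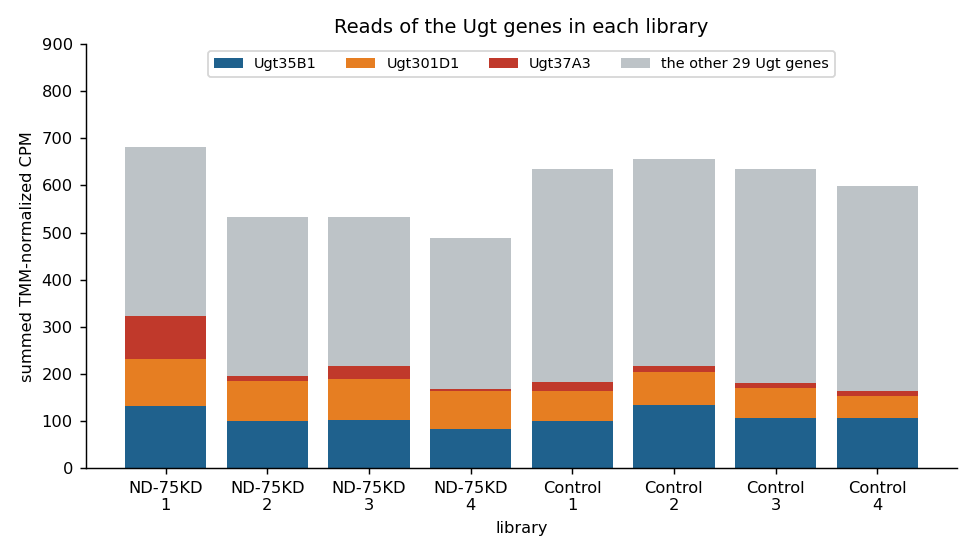
Summed TMM-normalized CPM of all 32 Ugt genes in each of the 8 libraries, split into Ugt35B1, Ugt301D1, Ugt37A3 and the other 29 genes. The bar of ND-75KD replicate 1 reaches 682 CPM and includes 90.1 CPM from Ugt37A3, whereas the other ND-75KD bars end between 489 and 533 CPM and the control bars between 599 and 656.5 CPM.

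Many Ugt genes are neighbours. With a gap of at most 25000 bases, 20 of the 32 genes fell into 5 clusters and 12 stood alone. The largest cluster spans 51.3 kilobases of 3R and holds 10 members, which RefSeq also lists under names that begin with Ugt86D. Of these, 6 were tested and 2 were lower, Ugt35C1 at its left end and Ugt302C1 inside it, beside 18.9% lower over all tested genes. The other 4, Ugt302K1, Ugt35E2, Ugt35B1 and Ugt35A1, were not called, with log2 fold changes of −0.11, −0.14, −0.09 and −0.23. Ugt35A1 was at 7.48 ± 0.63 CPM in ND-75KD heads and 8.74 ± 0.82 CPM in control heads (SD, n = 4 each). Ugt302K1 was at 3.60 ± 0.69 CPM in ND-75KD heads and 3.90 ± 0.30 CPM in control heads (SD, n = 4 each), and Ugt35E2, the lowest tested member, was at 1.43 ± 0.63 CPM in ND-75KD heads and 1.56 ± 0.18 CPM in control heads. The other gene listed within the cluster, CG4757, moved the other way. It was at 31.7, 39.8, 13.2 and 17.8 CPM in ND-75KD replicates 1 to 4, against 8.06, 6.64, 12.9 and 12.2 CPM in control replicates 1 to 4, with a log2 fold change of 1.35 ± 0.34 (SE, adjusted p = 0.0122). Changes of opposite sign therefore stood side by side, with CG4757 next in order to Ugt302C1. The outermost listed neighbours of the cluster, side-VI and CG18577, were not called.

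**Figure D5:**
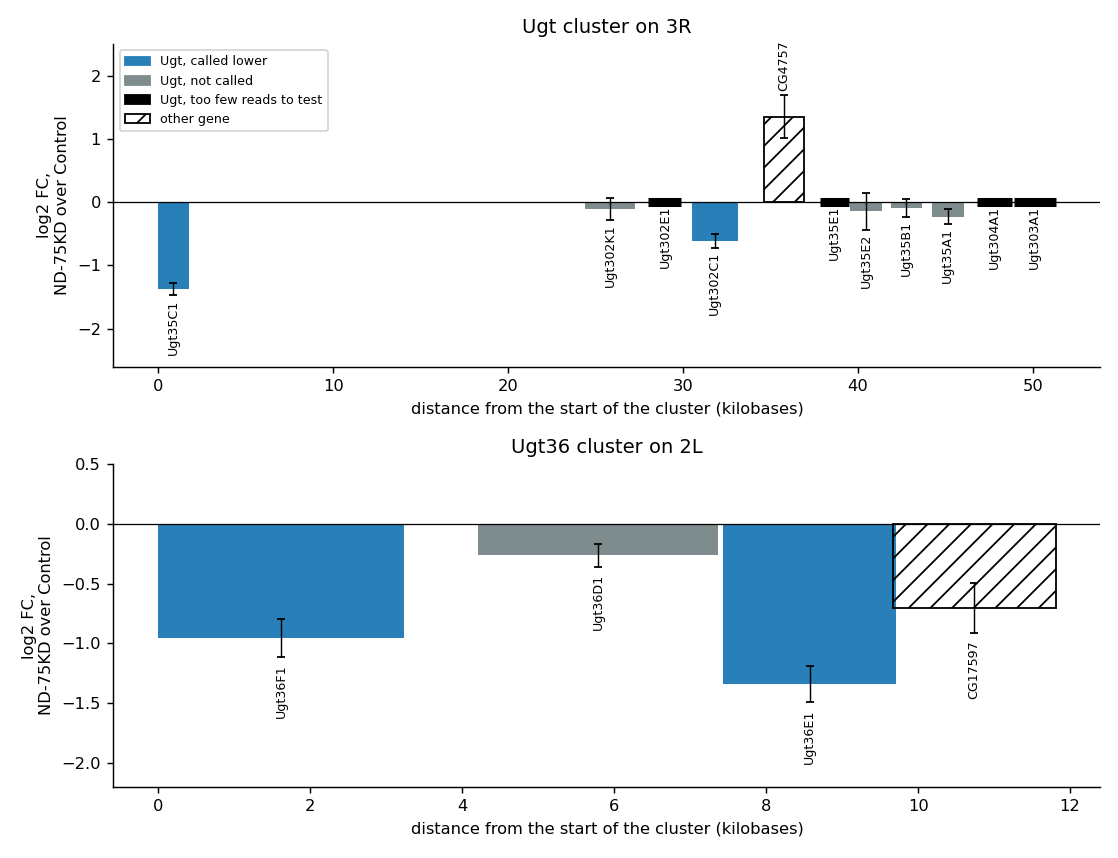
Log2 fold change, ND-75KD over control, along the 3R cluster of 10 Ugt genes (upper panel) and the 2L cluster of 3 family 36 genes (lower panel), against the distance from the start of each cluster in kilobases. Bars are drawn over each gene with the standard error, black blocks are Ugt genes with too few reads, and hatched bars are the other genes CG4757 (1.35) and CG17597 (−0.70). Ugt35C1 (−1.38) and Ugt302C1 (−0.61) stand below the other members of the 3R cluster.

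Of the other clusters, a family 37 group on 2L holds Ugt37C2, Ugt37E1 and Ugt37D1, of which Ugt37D1 was the tested one. It was at 38.9, 39.3, 34.9 and 40.7 CPM in ND-75KD replicates 1 to 4, against 42.6, 42.7, 47.4 and 43.4 CPM in control replicates 1 to 4. Every ND-75KD library was below every control library, but in edgeR the log2 fold change of −0.20 ± 0.09 (SE, adjusted p = 0.109) did not pass. With limma voom Ugt37D1 did pass (−0.23, adjusted p = 0.0334). Ugt37C2 and Ugt37E1, in the same cluster, had at most 4 reads in any library. Ugt316A1, a single gene on 3L, was the reverse case. It was at 37.6, 38.4, 39.7 and 38.5 CPM in ND-75KD replicates 1 to 4, against 36.6, 32.3, 31.3 and 34.7 CPM in control replicates 1 to 4. Every ND-75KD library was above every control library, and the log2 fold change was 0.19 ± 0.09 (SE, adjusted p = 0.107). It passed without control replicate 1 (0.28, adjusted p = 0.0381). Ugt50B3, whose gene spans 52.9 kilobases of 2R, was at 20.6 ± 1.65 CPM in ND-75KD heads and 19.8 ± 2.76 CPM in control heads (SD, n = 4 each). Ugt317A1, formerly Ugt58Fa, was at 12.3 ± 0.89 CPM in ND-75KD heads and 12.3 ± 1.46 CPM in control heads (SD, n = 4 each), and its log2 fold change was 0.01 ± 0.12 (SE).

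The 14 members with too few reads had between 3 and 92 reads over all 8 libraries. Ugt37B1 had the most, with 17, 16, 9 and 30 reads in ND-75KD replicates 1 to 4, against 5, 7, 2 and 6 reads in control replicates 1 to 4. Every ND-75KD library held more of its reads than any control library, but in CPM the groups overlapped, with 0.38 in ND-75KD replicate 3 and 0.49 in control replicate 2. The means were 0.78 ± 0.30 CPM in ND-75KD heads and 0.26 ± 0.17 CPM in control heads (SD, n = 4 each). In edgeR without a filter on low counts it was called higher (log2 fold change 1.67, adjusted p = 0.0286). Ugt37C1 had 4, 13, 2 and 8 reads in ND-75KD replicates 1 to 4, against 11, 8, 13 and 14 reads in control replicates 1 to 4, and its groups overlapped. Ugt35D1 had 6, 0, 0 and 1 reads in ND-75KD replicates 1 to 4 and 0 reads in each control library. Ugt303B3 had 0 reads in each ND-75KD library and 1, 2, 0 and 0 reads in control replicates 1 to 4. A count of 0 allows up to 3 reads in a library, by counting error alone, so neither gene can be compared. The other 10 were Ugt305A1, Ugt307A1, Ugt302E1, Ugt303A1, Ugt304A1, Ugt35E1, Ugt37A1, Ugt37A2, Ugt37C2 and Ugt37E1.

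Genes that supply the sugar donor were examined beside the family. UDP-glucose is made from glucose by hexokinase, phosphoglucomutase (Pgm1) and the pyrophosphorylase UGP. Of 10 such genes tested and reported here, 4 were lower in ND-75KD heads, 1 was higher and 5 were not called, beside 18.9% lower and 14.3% higher over all tested genes. Their median on the log2 scale was −0.31, beside −0.01 over all tested genes. UGP was at 234 ± 47.6 CPM in ND-75KD heads and 401 ± 72.3 CPM in control heads (SD, n = 4 each), and its log2 fold change was −0.78 ± 0.17 (SE, adjusted p = 0.00623). Pgm1 was at 277 ± 27.8 CPM in ND-75KD heads and 533 ± 75.9 CPM in control heads (SD, n = 4 each), and its log2 fold change was −0.95. On the log2 scale Galt, the uridylyltransferase, fell by 1.19 and Hex-C, a hexokinase gene, by 1.26. Hex-A, another hexokinase gene, rose, at 457 ± 24.8 CPM in ND-75KD heads against 357 ± 15.3 CPM in control heads (SD, n = 4 each), but was not called without ND-75KD replicate 3 (0.34) or 4 (0.33), or once the trend of counts with gene length was removed (0.23). sgl, the dehydrogenase that makes UDP-glucuronic acid, was at 36.9 ± 1.07 CPM in ND-75KD heads and 39.6 ± 4.82 CPM in control heads (SD, n = 4 each), and Uxs, Efr and senju were not called either. Galk, the galactokinase gene, was at 204 ± 55.9 CPM in ND-75KD heads and 294 ± 62.0 CPM in control heads (SD, n = 4 each). It was not called in edgeR (−0.53 on the log2 scale, adjusted p = 0.0688) but was lower in 5 of 17 alternatives, among them DESeq2 (−0.51, adjusted p = 0.0439) and the fits without ND-75KD replicate 1 (−0.73, adjusted p = 0.0168) or control replicate 4 (−0.65, adjusted p = 0.0238). In the annotation UGP, Pgm1, sgl, Uxs, senju and Galk share exon sequence with genes of the other strand, as do tgo, St3, Oatp26F and Mrp4 among the genes below. A further donor transport gene, frc, was not analysed here.

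Of 6 tested regulators of detoxification genes, 2 were higher and 1 was lower, beside 14.3% higher and 18.9% lower over all tested genes, and each of these calls was lost under some alternative. cnc, the fly Nrf2 factor, was at 259 ± 22.6 CPM in ND-75KD heads and 189 ± 14.5 CPM in control heads (SD, n = 4 each), and its log2 fold change was 0.46 ± 0.10 (SE, adjusted p = 0.00778). Its value was 0.19 and not called once the trend of counts with gene length was removed, and it shares exon sequence with genes of the other strand. maf-S, the partner of cnc on DNA, was at 42.6 ± 2.30 CPM in ND-75KD heads and 56.6 ± 7.95 CPM in control heads (SD, n = 4 each), and its log2 fold change was −0.41 ± 0.11 (SE, adjusted p = 0.0176). Removal of that trend left it at −0.07 and uncalled, and without ND-75KD replicate 2 it was −0.38 and also not called. tgo, the ARNT factor, rose by 0.36 on the log2 scale (adjusted p = 0.0474), but it was not called without ND-75KD replicate 1, 2, 3 or 4 or control replicate 3 (0.32 to 0.39). Keap1, the inhibitor of cnc, was at 21.9 ± 1.88 CPM in ND-75KD heads and 19.3 ± 2.10 CPM in control heads (SD, n = 4 each), and the nuclear receptor gene Hr96 was at 28.6 ± 1.116 CPM in ND-75KD heads and 28.3 ± 2.88 CPM in control heads.

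Other conjugation and export genes were counted as well. Of 3 tested cytosolic sulfotransferase genes 2 were lower, beside 18.9% of all tested genes. St1 was at 30.7 ± 2.68 CPM in ND-75KD heads and 68.5 ± 12.6 CPM in control heads (SD, n = 4 each), and its log2 fold change was −1.16 ± 0.14 (SE, adjusted p = 2.61e-04). St3 fell by 0.31 on the log2 scale and was not called without ND-75KD replicate 1, 2 or 3 (−0.32 to −0.30). CG15117, a beta-glucuronidase gene, fell by 0.59 on the log2 scale. Of 10 tested genes of ABC exporters and organic anion transporters, 4 were lower and 1 was higher, beside 18.9% and 14.3% of all tested genes. Mdr50, an ABC exporter gene, was at 1.86 ± 0.98 CPM in ND-75KD heads and 6.97 ± 0.87 CPM in control heads (SD, n = 4 each), and its log2 fold change was −1.92 ± 0.30 (SE, adjusted p = 0.00106), and Oatp26F fell by 1.63. Oatp74D fell by 0.37 and Oatp58Dc by 0.29 on the log2 scale. Oatp58Dc was not called when any single library was left out (−0.33 to −0.24), nor was Oatp74D without ND-75KD replicate 2, 3 or 4 or control replicate 1 or 3 (−0.35 to −0.28), and the lower transporters then numbered 2. Mrp4 (−0.34) and Oatp30B (−0.25) were not called in edgeR. Both were lower with voom, with the length trend removed and without control replicate 2, where the lower transporters numbered 5, 6 and 5. Mdr65, the exporter of the blood-brain barrier, rose by 0.30 and was not called without ND-75KD replicate 1, 2, 3 or 4 or control replicate 4 (0.26 to 0.32), nor with the length trend removed (0.16). The summed glial, photoreceptor, fat body and hemocyte markers were lower in the same libraries, as given above, and their part in the falls of Ugt and related genes was not tested.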

How the data were processed

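The authors cleaned reads with fastp, aligned them with HISAT2 to the Ensembl 102 genome and deposited raw counts per gene from featureCounts (versions and strand setting not given in the sources used here). How reads shared by near-identical Ugt copies were counted is not given in the sources used here either. The 16 other columns of values per library (size factor-scaled and FPKM values) and the authors' fold changes and p-values were not used.

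Counts were tested with edgeR 4.0.16 in R 4.3.3 (filterByExpr, minimum count 10 and total 15, TMM, quasi-likelihood test of genotype, Benjamini-Hochberg over 9986 genes). Standard errors are the log2 fold change over the square root of F. The script was tested on simulated data.

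All Ugt genes were accounted for, with library values for called genes, the 6 with the highest level per kilobase, and Ugt37A3, Ugt37D1, Ugt316A1, Ugt37B1, Ugt37C1, Ugt35D1, Ugt303B3, Ugt37A2 and CG4757, chosen after their values were seen. Members and lists were chosen with earlier results of these data known. Lists were UDP-sugar supply, regulators, sulfotransferases, glucuronidases, transporters and markers of neurons, glia, photoreceptors, fat body, olfactory support cells, oenocytes, midgut and Malpighian tubule, muscle and hemocytes. A member of the UDP-sugar supply list is not reported here and was left out of its counts and median. Exons and overlaps are from Ensembl release 115, whose start and end matched for 31 of the 32 Ugt genes, and older names are from RefSeq, which names 3 further Ugt genes not analysed here. Alternatives were DESeq2 1.42.0, other scalings and filters, limma 3.58.1 voom, removal of the length trend (loess, span 0.5), the replicate number as a block, a test against a fold of 1.2, and fits without each of the 8 libraries on the same genes.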

Additional observations from a re-analysis of the deposited data

Results flagged for a closer look

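In 4 of 36 groups of 4 libraries (18 tested genes in 2 genotypes), the end library stood apart from the rest by more than Dixon's 95% limit, where chance alone gives about 1 in 20 groups. All were control libraries. Ugt37A3 was at 17.9 CPM in control replicate 1, against 11.1 CPM in the next. Ugt37D1 was at 47.4 CPM in control replicate 3, against 43.4 CPM in the next. Ugt302K1 was at 3.46 CPM in control replicate 3, below 4.01 CPM in the next. Ugt35E2 was at 1.82 CPM in control replicate 4, against 1.48 CPM in the next.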

How the results depend on the processing

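The 5 lower Ugt genes were called in all 17 alternatives, and Ugt301D1 in all but the test against a fold of 1.2, where edgeR's glmTreat called 0 Ugt genes higher (at an unadjusted p under 0.05 edgeR's quasi-likelihood test gave 2, and DESeq2 called 1). The higher Ugt genes numbered 2 without the filter (with Ugt37B1), 2 with voom (with Ugt316A1) and 1 to 2 with a library left out. The lower ones numbered 5 to 6 with a library left out and 7 with voom, which added Ugt36D1 and Ugt37D1. Over all genes, the test against a fold of 1.2 called 1817, 696 higher and 1121 lower. Leaving out a library gave 2216 to 3585 in all, 921 to 1723 higher (921 without ND-75KD replicate 3 and 951 without ND-75KD replicate 2) and 1295 to 1967 lower. With upper quartile scaling 7 Ugt genes did not overlap between genotypes. Same-numbered libraries did not deviate together (correlations −0.11, −0.04, −0.01 and 0.03). With 4 libraries in each genotype this cannot show whether libraries of the same number shared a batch. With the replicate block 2707 genes were called, and 1 Ugt gene was higher and 5 lower. Of 849 recomputed log2 fold changes of single genes, 751 kept direction and side, 54 were no longer called, 17 were newly called and 27 changed sign. The last came from 9 genes between −0.14 and 0.05 in edgeR, not called there or with the changed sign. With voom Ugt50B3 was −0.014, Ugt317A1 −0.079, Hr96 −0.064 and Oatp33Ea −0.13. With the length trend removed Ugt50B3 was −0.0066, Ugt35B1 0.044, Efr 0.0059, Hr96 −0.0099, MRP −0.22 and Oatp33Ea −0.013. With the replicate block Oatp33Ea was −0.040. With a library left out, Ugt50B3 ran from −0.029 to 0.16, Ugt35B1 from −0.22 to 0.014, Ugt36A1 from −0.018 to 0.13, Ugt35E2 from −0.48 to 0.0041, Ugt317A1 from −0.056 to 0.12, Hr96 from −0.042 to 0.10, MRP from −0.079 to 0.092 and Oatp33Ea from −0.24 to 0.16. The cause of these shifts was not tested. The 14 members that did not pass the filter had at most 92 reads over all 8 libraries, and the tested members had at least 259. Values of the former rest on few reads.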
